A study of Mus musculus with 12 samples.

Results

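The PGC-1, ERR and PPAR metabolic regulators are transcriptional coactivators and nuclear receptors that set the expression of genes for fatty acid oxidation, the respiratory chain and mitochondrial upkeep. They were taken by name from a table of 13552 genes in mouse hearts, namely Ppargc1a, Ppargc1b, Perm1, Esrra, Esrrg, Ppara, Ppard, Rxra, Nrf1 and Tfam. All 10 were in the table, and all 10 passed the filter for testing that 11240 genes passed. The values come from whole hearts of male C57BL/6 mice, 8 to 10 weeks old, collected 9 h after transverse aortic constriction (TAC), which narrows the aorta and raises the pressure load on the left ventricle, or after sham surgery. Wild-type (WT) mice were compared with Bcl-xL S14A knock-in (KI) mice, which are homozygous for a germline change of serine 14 of Bcl-xL to alanine, so that every cell of the heart carries it. A change of 1 amino acid cannot be checked from these values. The 2 genotypes and 2 operations make 4 groups of 3 hearts, and hearts are named by the mouse numbers in the labels. RNA was sequenced to look for pathways that change early under load.

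PGC-1α and PGC-1β, encoded by Ppargc1a and Ppargc1b, do not bind DNA themselves but are recruited by nuclear receptors, among them the oestrogen-related receptors (ERR) and the peroxisome proliferator-activated receptors (PPAR), and raise transcription of their target genes. PPARs bind DNA as partners of retinoid X receptors, and ERRα, NRF1 and TFAM carry the programme on to genes of oxidative phosphorylation and to the mitochondrial genome. In the heart this network is known for keeping up the capacity to burn fatty acids, and its members are known to be lowered in hypertrophied and failing hearts.

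The levels are given in RPKM, reads on a gene scaled by its exon length and by the reads on all genes of the heart. Depth, read back from the table, was 23650167 to 32455184 reads on genes per heart, and no member had fewer than 283 reads in any heart, so that counting error was at most 5.94% of a value. All 8 cardiomyocyte markers were found, with summed levels that overlapped among all 4 groups (14523 to 24542 RPKM). Actc1 was the largest part of that sum. By limma, 2 of the 8, Myh6 and Mb, were called lower after TAC in WT hearts, 1, Pln, was called lower in KI hearts, and 3, Tnni3, Myl2 and Mb, were called higher in KI hearts when the TAC groups were compared. None of the 7 adipocyte, 5 skeletal muscle or 4 lung markers was among the rows analysed here. Since the hearts were measured in bulk, fewer cells of a type and less RNA per cell cannot be told apart. Differences are log2 fold changes of RPKM + 1 from limma fitted to all 12 hearts, with 95% intervals and p-values adjusted over all genes tested, and a gene was called where the adjusted p was under 0.05. The labels give no cage, litter or surgery date, so the p-values measure the spread between these hearts. The study's methods state that wild-type males were bought from a supplier, while the KI line was made and backcrossed. If the WT hearts came from bought mice, genotype and origin of the mice cannot be told apart.

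After TAC, regulators of fatty acid and mitochondrial metabolism fell in both genotypes, Perm1 and Rxra in both and 4 more in KI hearts. In WT hearts 2 of the 10 regulators were called lower after TAC and none higher, where 4.6% of all genes tested were called lower and 6.96% higher. In KI hearts 6 were called lower, namely Ppargc1a, Ppargc1b, Perm1, Esrra, Ppara and Rxra, and Nrf1 was called higher, where 14.7% of all genes were called lower and 8.57% higher. Between the TAC groups 1 regulator, Ppargc1b, was called lower in KI hearts, where 8.13% of all genes were called lower and 2.92% higher. No member was called between the sham groups, where 0.0178% of genes were called, with adjusted p-values all at 1.00 after rounding and no member at an unadjusted p under 0.05. The test of whether the change after TAC differed between genotypes called none of the 10 and 0% of all genes at an adjusted p of 0.05. At an unadjusted p under 0.05 it passed 1 member, Ppargc1b, and 14.8% of all genes, so the differing counts of WT and KI hearts are not shown to be a difference between genotypes. The counts of all genes rested on single hearts. The interaction called 232 genes without WT TAC heart 9, 183 without KI TAC heart 7 and 7 without WT TAC heart 10. Of all genes 1242 were called between the TAC groups, but 154 without WT TAC heart 7, 182 without KI TAC heart 6, 629 without KI TAC heart 5, 770 without WT TAC heart 10 and 216 when only the TAC hearts were fitted. In WT hearts 1299 were called, but 582 without WT TAC heart 7, 655, 682 and 858 without WT sham heart 2, 3 and 1, and in KI hearts 2620, but 1448 without KI sham heart 3.

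The median difference of the 10 members after TAC was -0.38 in WT hearts and -0.86 in KI hearts, beside medians over all genes of 0.04 and -0.10. Between the TAC groups the median was -0.35 for the members and -0.12 for all genes. All 3 hearts with TAC lay below all 3 sham hearts for 3 members in WT mice, as for 15% of all genes, and for 8 members in KI mice, as for 24.7% of all genes. The KI TAC hearts all lay below the WT TAC hearts for 5 members, as for 19.4% of all genes. The shift of all genes was removed by median-ratio scaling, which brought the medians of all genes to 0.00 in KI hearts and between the TAC groups. With that scaling the numbers of members called stayed at 2, 7 and 1, while the share of calls that were higher moved from 36.8% to 51.5% in KI hearts and from 26.4% to 51.6% between the TAC groups. In WT hearts it moved from 60.2% to 51.1%.

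**Figure D1:**
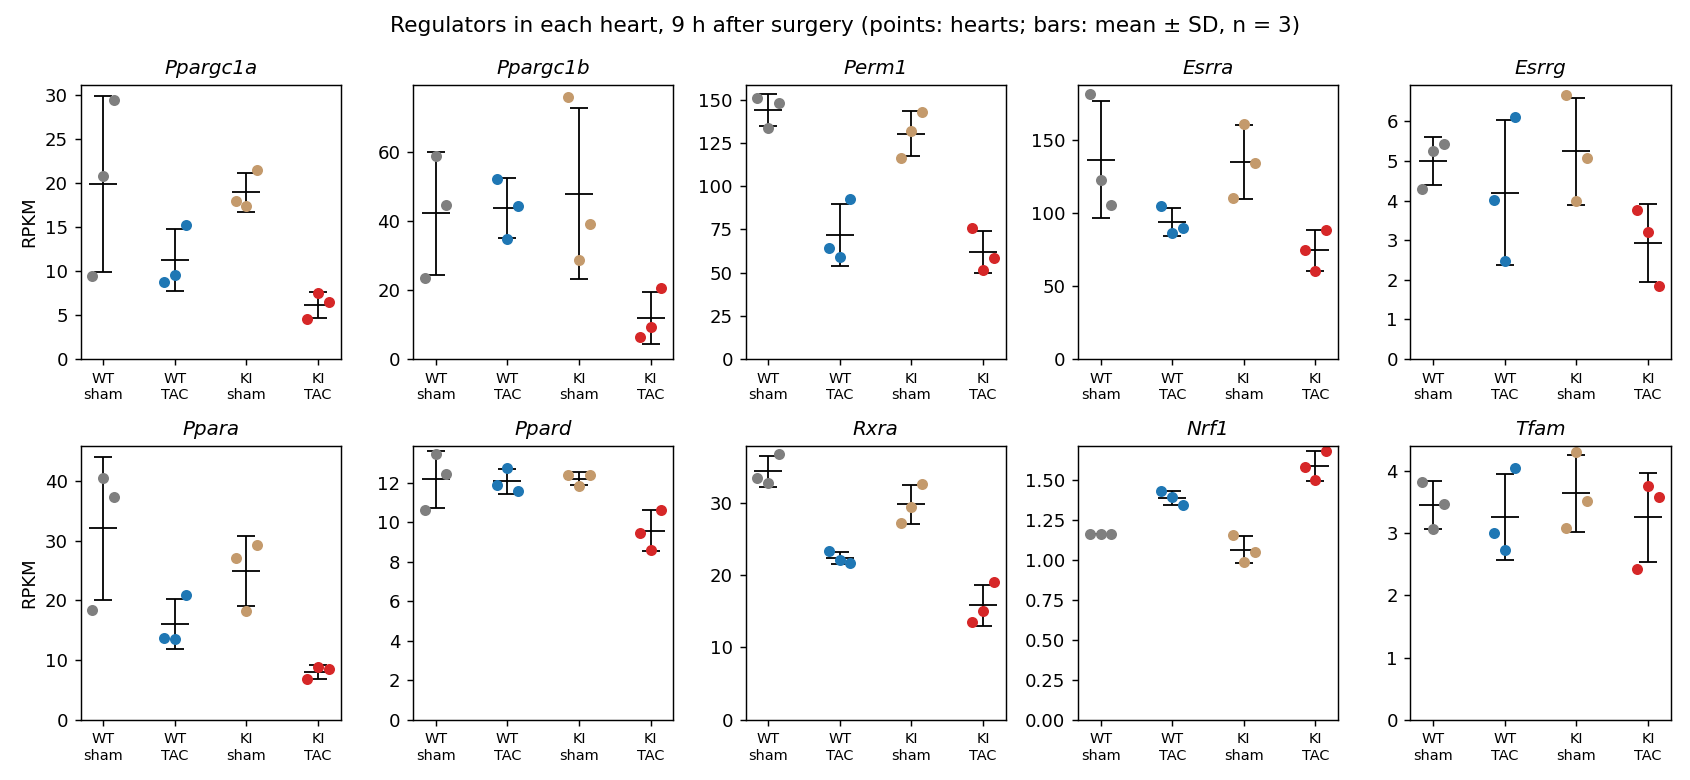
Levels of the 10 regulators in RPKM (vertical axes, from 0) in each heart of the 4 groups, with the mean ± SD over 3 hearts. Ppargc1b stood between 6.25 and 20.5 RPKM in the KI TAC hearts and at 23.5 RPKM or more in the other 9, while Perm1 was lower in both TAC groups than in either sham group.

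Within a group the members spanned a wide range of levels per kilobase. In WT sham hearts Perm1 (144 ± 9.33 RPKM, SD, n = 3) and Esrra (136 ± 40.1) were the highest and did not differ beyond their spread. Ppargc1b, Rxra, Ppara, Ppargc1a and Ppard followed, each overlapping the next, and then Esrrg at 4.99 RPKM, Tfam at 3.45 RPKM and Nrf1 at 1.17 RPKM, with no overlap between these neighbours. In KI TAC hearts Esrra (74.5 ± 14.1 RPKM) and Perm1 (61.9 ± 12.4) still led and still overlapped, Rxra had a higher mean than Ppargc1b, and Ppard a higher mean than Ppara and Ppargc1a. The mean of Ppard lay below both of these in the sham groups, although the ranges of Ppard and Ppargc1a overlapped in WT sham hearts.

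Upstream sequences are shown for Ppargc1a, Perm1 and Esrra, 3 members called lower in KI hearts that have 1 annotated start each and a window before it mostly outside annotated exons. They were searched for letters that factors of this network and of cAMP signalling are known to bind. They come from RefSeq's GRCm38.p6 annotation, run 5′ to 3′ on the strand of the gene and end at the base before the first annotated exon. In Ppargc1a (chr5:51567727-51567975, minus strand) capitals mark a half-site of the cAMP response element, TGACG, read on the opposite strand. In Perm1 (chr4:156215677-156215867, plus strand) they mark the nuclear receptor half-site AGGTCA, also on the opposite strand, and in Esrra (chr19:6921814-6922058, minus strand) the NRF1 core GCATGC.
Ppargc1a: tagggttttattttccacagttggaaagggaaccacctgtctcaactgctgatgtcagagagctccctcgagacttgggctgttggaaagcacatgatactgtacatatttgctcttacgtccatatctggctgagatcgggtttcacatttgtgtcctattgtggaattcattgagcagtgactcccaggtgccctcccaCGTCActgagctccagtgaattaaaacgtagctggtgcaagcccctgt
Perm1: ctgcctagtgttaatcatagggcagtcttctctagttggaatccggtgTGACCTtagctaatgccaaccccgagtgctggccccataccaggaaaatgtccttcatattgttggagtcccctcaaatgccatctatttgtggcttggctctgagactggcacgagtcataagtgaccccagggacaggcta
Esrra: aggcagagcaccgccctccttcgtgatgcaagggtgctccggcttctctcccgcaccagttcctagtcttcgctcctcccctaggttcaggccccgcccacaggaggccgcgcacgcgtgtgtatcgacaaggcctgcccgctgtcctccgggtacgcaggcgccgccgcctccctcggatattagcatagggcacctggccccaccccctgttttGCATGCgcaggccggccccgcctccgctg

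Motifs were counted on both strands of the 250 bases before each annotated start. The half-site TGACG occurred in 17.8% of all 32851 promoters, AGGTCA in 14.02% and GCATGC in 6.70%. The full ERR element, TCAAGGTCA, which overlaps AGGTCA, was found in 0.387% of all promoters and in none of the windows of the 9 members searched. Rxra has 2 annotated starts, of which 1 held AGGTCA on each strand and the other none of these letters, and the window of Ppara, mostly within annotated exons, held GCATGC and TGACG. Esrrg, which was not called, has 4 annotated starts, and the window before 1 of them held 2 copies of GCATGC. The windows of Ppard, Nrf1 and Tfam held none of these letters. A match describes these letters only and does not show a site in use.

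Among the coactivators, Ppargc1a was 9.41, 20.8 and 29.4 RPKM in WT sham hearts 1, 2 and 3, and 8.80, 9.59 and 15.2 RPKM in WT TAC hearts 7, 9 and 10. It was 17.9, 17.4 and 21.4 RPKM in KI sham hearts 1, 2 and 3, and 4.58, 7.47 and 6.44 RPKM in KI TAC hearts 5, 6 and 7. The WT groups overlapped through WT sham heart 1, which was lower than 2 of the WT TAC hearts, while the KI TAC hearts lay below every other heart of the study. The fall in KI hearts was -1.49 (95% interval -2.19 to -0.80, adjusted p = 0.00518), and the mean level decreased by 67.5%. In WT hearts the difference was -0.68 (-1.37 to 0.02, adjusted p = 0.19), and without single hearts it ranged from -1.11 without WT sham heart 1, where it was called (adjusted p = 0.0217), to -0.34 without WT sham heart 3 (adjusted p = 0.543). The difference between the TAC groups was -0.75 (-1.45 to -0.06, adjusted p = 0.136).

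Its paralog Ppargc1b had the largest fall of the 10 in KI hearts. The levels were 23.5, 59.0 and 44.7 RPKM in WT sham hearts and 52.2, 34.9 and 44.5 RPKM in WT TAC hearts. In KI sham hearts they were 76.0, 28.7 and 39.2 RPKM, and in KI TAC hearts 6.25, 9.18 and 20.5 RPKM. The WT TAC hearts lay within the range of the WT sham hearts, and the highest KI TAC heart lay below the lowest heart of each other group. Ppargc1b decreased by 1.95 on the log2 scale in KI hearts after TAC (95% interval -2.86 to -1.04, adjusted p = 0.00526). The difference in WT hearts was 0.12 (-0.79 to 1.03, adjusted p = 0.88). After TAC the KI hearts had less of it than the WT hearts (-1.92, -2.84 to -1.01, adjusted p = 0.0168), a call that was lost without WT TAC heart 7 (-1.79, adjusted p = 0.0854), KI TAC heart 5 (-1.58, adjusted p = 0.0554) or KI TAC heart 6 (-1.83, adjusted p = 0.0767). The interaction of genotype and surgery was -2.08 (-3.36 to -0.79, unadjusted p = 0.00388 by limma, adjusted p = 0.163), and it was called only without KI TAC heart 7 (-2.52, adjusted p = 0.0452).

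Perm1, a muscle coactivator that works with ERRs on genes of energy metabolism, fell in both genotypes. It was 151, 133 and 148 RPKM in WT sham hearts, 63.9, 59.3 and 92.3 RPKM in WT TAC hearts, 116, 132 and 143 RPKM in KI sham hearts, and 75.6, 51.5 and 58.5 RPKM in KI TAC hearts. No TAC heart reached the lowest sham heart. The fall was -1.02 (95% interval -1.47 to -0.57, adjusted p = 0.00775) in WT and -1.08 (-1.53 to -0.62, adjusted p = 0.0029) in KI hearts, and each was called under all 22 alternatives run. The interaction was -0.06, with an interval of -0.69 to 0.58, and differences between the genotypes inside this interval cannot be told from 0.

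The receptor ERRα, encoded by Esrra, is both a partner and a known target of PGC-1α. Its level was 182, 122 and 105 RPKM in WT sham hearts and 104, 86.5 and 89.8 RPKM in WT TAC hearts. KI sham hearts had 110.0, 161 and 134 RPKM, and KI TAC hearts 74.6, 60.4 and 88.6 RPKM. TAC hearts lay below sham hearts in both genotypes, by a gap of less than 1 RPKM in WT mice. Esrra was called lower in KI hearts (-0.85, 95% interval -1.35 to -0.34, adjusted p = 0.0196), and the call was lost without KI sham heart 2, KI sham heart 3 or KI TAC heart 6 (adjusted p = 0.0697, 0.0641 and 0.0773). In WT hearts the difference was -0.50 (-1.01 to -0.00050, adjusted p = 0.179), and it ranged from -0.67 without WT sham heart 3 to -0.28 without WT sham heart 1 (adjusted p = 0.141 and 0.512).

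Esrrg, which encodes ERRγ, was far lower, at 4.30, 5.24 and 5.44 RPKM in WT sham hearts and 4.02, 2.46 and 6.10 RPKM in WT TAC hearts. In KI hearts it was 6.68, 3.98 and 5.07 RPKM after sham and 3.76, 3.21 and 1.84 RPKM after TAC. The KI groups did not overlap, but the difference of -0.68 (95% interval -1.23 to -0.12) did not pass (adjusted p = 0.0746), and it passed without WT TAC heart 9 or WT TAC heart 10 (adjusted p = 0.0424 and 0.0408). The within-heart ratio of Esrra to Esrrg, from 14.7 to 48.0 over all hearts, overlapped among all groups. The third family member, Esrrb, was not called in any comparison.

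**Figure D2:**
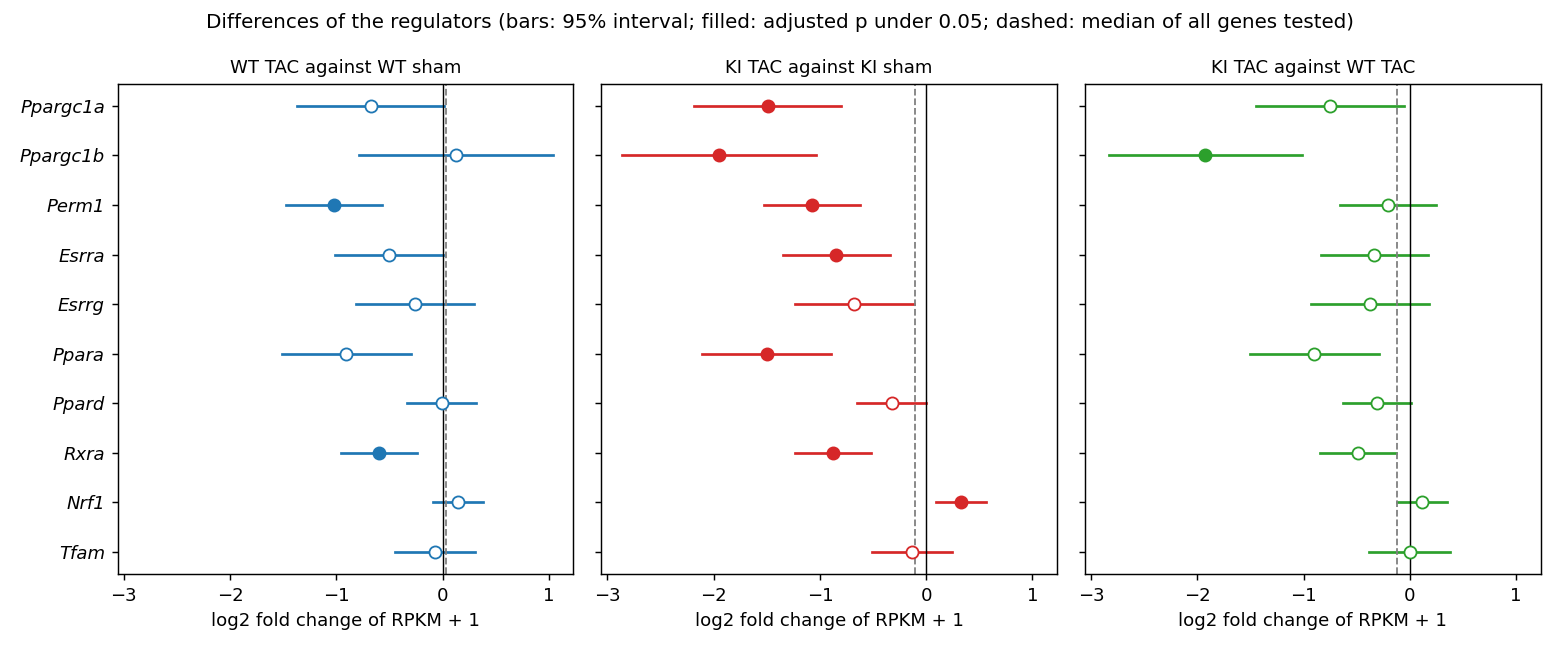
Log2 fold changes of RPKM + 1 (horizontal axes) of the 10 regulators in 3 comparisons, with 95% intervals from limma. Filled points have an adjusted p under 0.05, and the dashed line marks the median of all genes tested, at 0.04, -0.10 and -0.12. Of the called regulators, those left of 0 number 2, 6 and 1 from left to right, and Nrf1 in KI hearts is the only filled point to the right of 0.

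Among the receptors that bind fatty acids, Ppara, whose product drives fatty acid oxidation genes in heart and liver, was 18.4, 40.5 and 37.4 RPKM in WT sham hearts and 13.7, 13.6 and 20.8 RPKM in WT TAC hearts. It was 27.1, 18.2 and 29.3 RPKM in KI sham hearts and 6.75, 8.85 and 8.47 RPKM in KI TAC hearts. The KI TAC hearts lay below every other heart, and the WT groups overlapped through WT sham heart 1 and WT TAC heart 10, and WT sham heart 1 was also the lowest WT sham heart for both PGC-1 genes.

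Ppara fell in KI hearts by 1.50 on the log2 scale (95% interval -2.11 to -0.89, adjusted p = 0.0023), a call that held under all 22 alternatives run. The difference in WT hearts was -0.91 (-1.51 to -0.30, adjusted p = 0.053), and it passed without WT sham heart 1 (-1.25, adjusted p = 0.00993), WT TAC heart 10 (-1.10, adjusted p = 0.03) or KI sham heart 2 (-0.91, adjusted p = 0.0491). Between the TAC groups the difference was -0.90 (-1.51 to -0.29, adjusted p = 0.0553), and it passed without WT sham heart 1 (adjusted p = 0.0257). It also passed with a pseudocount of 0.1 (adjusted p = 0.0492) and with limma-voom on rebuilt reads (adjusted p = 0.0461).

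Ppard, which encodes the widely expressed PPARδ, was 10.6, 13.5 and 12.4 RPKM in WT sham hearts, 11.9, 12.8 and 11.6 RPKM in WT TAC hearts and 12.4, 11.8 and 12.4 RPKM in KI sham hearts. KI TAC hearts had 9.47, 8.59 and 10.6 RPKM, only just above 1 WT sham heart at their highest. The differences were -0.01 (95% interval -0.33 to 0.32, adjusted p = 0.984) in WT and -0.32 (-0.65 to -0.00070, adjusted p = 0.135; -0.20 with median-ratio scaling) in KI hearts, and a fall larger than 0.33 in WT or 0.65 in KI hearts lies outside these intervals. The third PPAR, Pparg, known for its role in fat cells, was called higher after TAC in KI hearts (0.63, adjusted p = 0.0295), from 2.65, 4.49 and 3.68 RPKM to 6.30, 6.69 and 5.23 RPKM. In WT hearts its difference was -0.01 (adjusted p = 0.978), and the interaction was 0.65 (adjusted p = 0.295).

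The ratio of Ppara to Ppard within a heart does not depend on how hearts are scaled to each other. It was 1.73, 3.00 and 3.01 in WT sham hearts, 1.16, 1.06 and 1.80 in WT TAC hearts, 2.19, 1.54 and 2.37 in KI sham hearts and 0.712, 1.03 and 0.797 in KI TAC hearts. The KI TAC hearts were the lowest of all and did not overlap any other group, while the WT groups overlapped by 1 heart on each side. The ratio of Ppargc1b to Ppargc1a was 5.93, 3.64 and 2.92 in WT TAC hearts and 1.37, 1.23 and 3.18 in KI TAC hearts, with an overlap through KI TAC heart 7. Both ratios were chosen after the values were seen and were given no test.

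**Figure D3:**
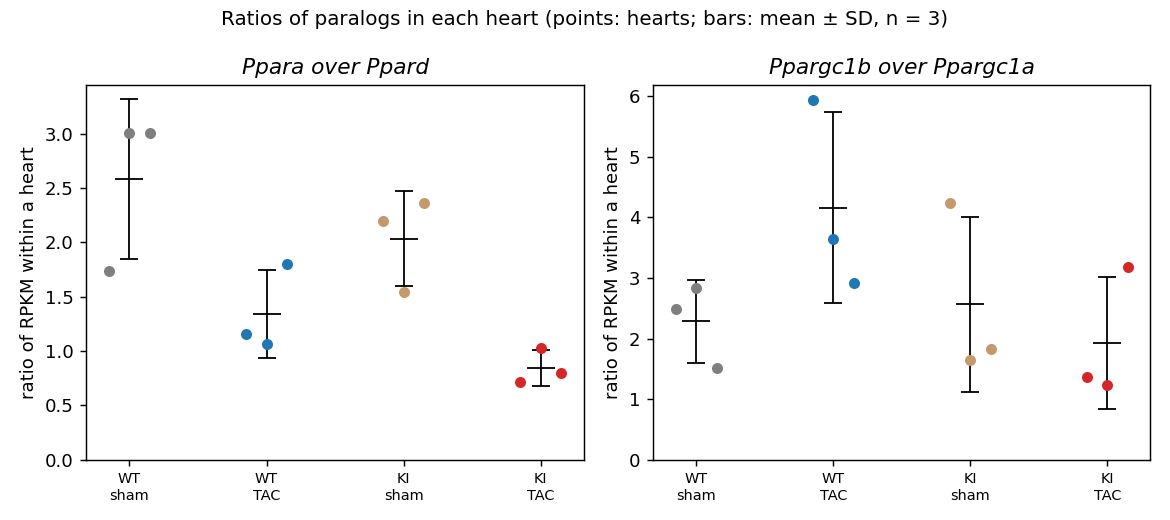
Within-heart ratios of RPKM (vertical axes, from 0) of Ppara to Ppard and of Ppargc1b to Ppargc1a in the 4 groups, with the mean ± SD over 3 hearts. Ppara over Ppard was at most 1.03 in KI TAC hearts and at least 1.06 elsewhere. The Ppargc1b to Ppargc1a ratio was highest in WT TAC heart 7, at 5.93.

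Rxra encodes the retinoid X receptor that PPARs need to bind DNA. It was 33.5, 32.8 and 36.7 RPKM in WT sham hearts, 23.3, 22.1 and 21.6 RPKM in WT TAC hearts, 27.2, 29.5 and 32.6 RPKM in KI sham hearts and 13.5, 15.0 and 19.0 RPKM in KI TAC hearts. The 4 groups did not overlap, in the order WT sham, KI sham, WT TAC and KI TAC. Rxra fell by 0.60 (95% interval -0.95 to -0.24, adjusted p = 0.0335) in WT and by 0.88 (-1.24 to -0.52, adjusted p = 0.00235) in KI hearts on the log2 scale. The WT call was lost on leaving out any 1 of the 6 WT hearts or KI sham heart 3 (adjusted p from 0.0524 to 0.121), while the KI call held under all 22 alternatives. The difference between the TAC groups, -0.49, was not called (adjusted p = 0.0725) except without KI TAC heart 7 (-0.62, adjusted p = 0.0258).

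Of the other retinoid X receptors, Rxrg fell in both genotypes, by 1.16 in WT (adjusted p = 0.0212) and by 0.94 in KI hearts (adjusted p = 0.0323). Rxrb fell in KI hearts by 0.98 (adjusted p = 0.0388) and had a difference of -0.25 in WT hearts (adjusted p = 0.646). The interaction for Rxrb was -0.73 (-1.69 to 0.23, adjusted p = 0.449).

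Of the factors of mitochondrial biogenesis, Nrf1, which encodes nuclear respiratory factor 1, was 1.17, 1.16 and 1.17 RPKM in WT sham hearts, 1.43, 1.39 and 1.34 RPKM in WT TAC hearts, 1.16, 0.986 and 1.05 RPKM in KI sham hearts and 1.59, 1.50 and 1.68 RPKM in KI TAC hearts. All TAC hearts stood above all sham hearts. The mean level was 49.1% higher in KI hearts after TAC. Nrf1 was called higher in KI hearts (0.33, 95% interval 0.09 to 0.56, adjusted p = 0.0452; 0.54 with a pseudocount of 0.1 and up to 0.72 with limma-voom on rebuilt reads and median-ratio scaling) and not in WT hearts (0.14, -0.09 to 0.38, adjusted p = 0.42). The KI call held in 10 of 22 alternatives and was lost when only the KI hearts were fitted (adjusted p = 0.12), without the trend of variance on level (adjusted p = 0.0708) and on leaving out any 1 of 10 hearts, the exceptions being WT TAC hearts 9 and 10.

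Tfam, whose product packages mitochondrial DNA and helps to start its transcription, was 3.83, 3.07 and 3.47 RPKM in WT sham hearts, 3.01, 2.72 and 4.05 RPKM in WT TAC hearts, 3.08, 4.32 and 3.53 RPKM in KI sham hearts and 2.43, 3.76 and 3.58 RPKM in KI TAC hearts. All groups overlapped. The differences after TAC were -0.07 (95% interval -0.45 to 0.30, adjusted p = 0.821) in WT and -0.13 (-0.51 to 0.25, adjusted p = 0.623) in KI hearts.

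Around the regulators stand genes that work with them or are known as their targets. Of the 45 calls of such genes after TAC in either genotype and between the TAC groups, 6 were kept whichever heart was left out, those of Pprc1, Thra, Polrmt and Vldlr after TAC in KI hearts and of Angptl4 after TAC in both genotypes, and 39 were lost without at least 1 heart.

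Of 30 partners and modulators, 1 was called higher and 2 lower after TAC in WT hearts, and 3 higher and 5 lower in KI hearts, shares of 3.33%, 6.67%, 10% and 16.7% beside 6.96%, 4.6%, 8.57% and 14.7% of all genes. Pprc1, the third member of the PGC-1 family, rose in both genotypes. It went from 3.94, 4.01 and 4.13 RPKM to 10.5, 10.7 and 5.83 RPKM in WT hearts (0.95, adjusted p = 0.0202) and from 5.14, 3.08 and 4.03 RPKM to 13.97, 8.32 and 8.98 RPKM in KI hearts (1.16, adjusted p = 0.00381). These counts rested on single hearts, and without WT TAC heart 7 or 9, or WT sham heart 1, none of the 30 was called in WT hearts. In KI hearts 1 higher and 1 lower were left without KI sham heart 1 or KI sham heart 3, 1 and 2 without KI TAC heart 6, 2 and 2 without KI TAC heart 5, and 2 and 3 without WT sham heart 2. With median-ratio scaling 4 were higher and 2 lower.

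Thra, encoding a thyroid hormone receptor that also pairs with retinoid X receptors, fell in KI hearts (-1.01, adjusted p = 0.00545) to 12.8, 10.3 and 17.5 RPKM. In WT hearts its difference was -0.13 (adjusted p = 0.742), and the interaction was -0.88 (adjusted p = 0.234).

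Compared with the WT TAC hearts, KI TAC hearts also had less Thra (-0.95, adjusted p = 0.02), which in the former stood at 31.0, 25.8 and 23.6 RPKM. Prkaa2, a catalytic subunit of the energy sensor AMPK, and the coactivator Ncoa1 were lower in KI TAC hearts as well (-1.05 and -0.78, adjusted p = 0.0488 and 0.0404). These 3 of 30 (10%) were the calls between the TAC groups, where 8.13% of all genes were called lower and 2.92% higher. None of the 3 was left without WT TAC heart 7 or KI TAC heart 6. The number left was 1 without WT sham heart 2, WT sham heart 3, KI sham heart 3 or KI TAC heart 5, and 0 when only the TAC hearts were fitted. With median-ratio scaling or quantile normalization 1 partner was called lower and 1 higher between the TAC groups. Sirt3, a mitochondrial deacetylase, fell in WT hearts (-0.69, adjusted p = 0.034). In KI hearts its difference was -0.33 (adjusted p = 0.235), and the interaction was 0.36 (adjusted p = 0.536).

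Of 14 tested nuclear genes for upkeep and transcription of mitochondrial DNA, none was called in WT hearts and 5 (35.7%) were called lower in KI hearts, where 4.6% and 14.7% of all genes were called lower. The median differences were -0.27 and -0.39, beside 0.04 and -0.10 for all genes. Polrmt, the mitochondrial RNA polymerase, was 21.3, 25.2 and 21.7 RPKM in KI sham and 9.50, 9.31 and 15.4 RPKM in KI TAC hearts (-0.97, adjusted p = 0.00317). In WT hearts its difference was -0.37 (adjusted p = 0.219), and the interaction was -0.59 (adjusted p = 0.33). The others called lower in KI hearts were Mterf2 (-0.95), a regulator of mitochondrial transcription, Polg (-0.56), the mitochondrial DNA polymerase, Twnk (-0.52), the helicase, and Mgme1 (-0.52), a nuclease. Mgme1 was called lower in the KI hearts between the TAC groups, too (-0.60, adjusted p = 0.0263). It was the 1 call of the 14 there (7.14%), where 8.13% of all genes were called lower. Its difference between the sham groups was -0.44 (-0.77 to -0.12, adjusted p = 1.00 after rounding), with an interaction of -0.16 (adjusted p = 0.746). With median-ratio scaling or quantile normalization none of the 14 was called lower between the TAC groups and 1 was called higher. The number called lower was 3 with median-ratio scaling, 3 without KI sham heart 1, KI TAC heart 5 or KI TAC heart 7 and when only the KI hearts were fitted, and 2 without KI sham heart 2, KI sham heart 3 or KI TAC heart 6. Mterf1a was not analysed here.

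Of 12 tested transcripts of the mitochondrial genome itself, 1 (8.33%) was called lower in WT hearts, where 4.6% of all genes were. That call was kept in 4 of 12 fits without 1 heart. In KI hearts 0 of 12 were called by limma, where 8.57% of all genes were called higher and 14.7% lower. At an unadjusted p under 0.05, 1 of 12 passed there, beside 36.8% of all genes. Between the TAC groups 1 (8.33%), mt-Atp6, was called higher in KI hearts (1.11, adjusted p = 0.035) and 0 lower, where 2.92% and 8.13% of all genes were. The difference of mt-Atp6 between the sham groups was 0.85 (0.20 to 1.51, adjusted p = 1.00 after rounding), and the interaction was 0.26 (-0.67 to 1.18, adjusted p = 0.795). Poly(A)-selected libraries and the overlap of mt-Atp6 with mt-Atp8 make this value uncertain.

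**Figure D4:**
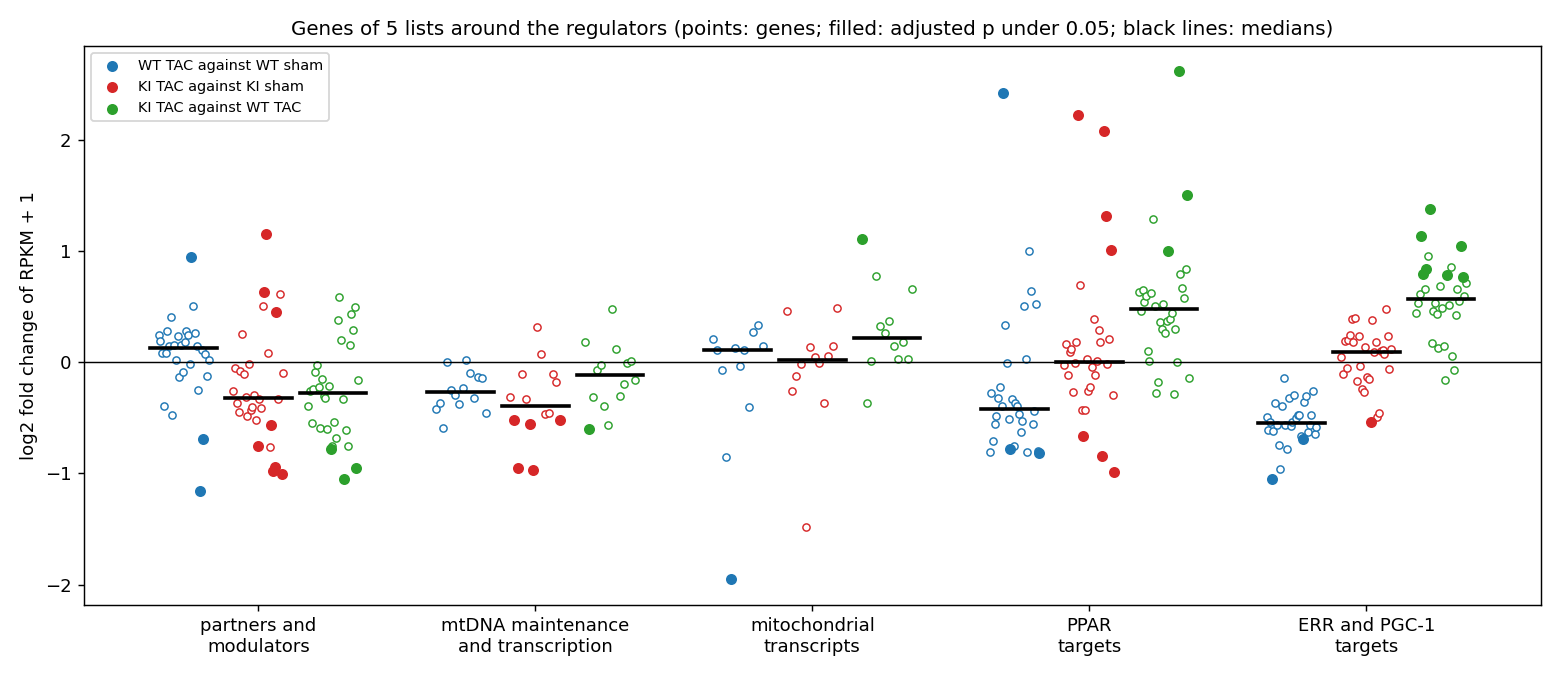
Log2 fold changes of RPKM + 1 (vertical axis) of the genes of 5 lists in 3 comparisons, with filled points for an adjusted p under 0.05 and black lines for medians. The ERR and PGC-1 targets have medians of -0.55 in WT hearts, 0.09 in KI hearts (-0.089 with quantile normalization) and 0.57 between the TAC groups.

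The 30 target genes of ERR and PGC-1, mostly enzymes of the citric acid cycle and subunits of the respiratory chain, had few calls in either genotype, but 21 of 30 had an unadjusted p under 0.05 in WT hearts, 2 in KI hearts and 23 between the TAC groups, beside 27.9%, 36.8% and 30.3% of all genes. In WT hearts 2 of 30 were called lower after TAC, Ckm (-1.05, adjusted p = 0.0134), the muscle creatine kinase, and Ogdh (-0.69, adjusted p = 0.0289) of the citric acid cycle, with a list median of -0.55 against 0.04 for all genes. The number in WT hearts was 7 with median-ratio scaling, 6 with quantile normalization, 9 without the variance trend, 5 without KI sham heart 1 or 2, 1 without WT sham heart 2 or 3 or WT TAC heart 7 or 9, and 0 without WT sham heart 1. In KI hearts, where Ppargc1a, Ppargc1b and Esrra fell, 1 of 30 was called lower, Mfn2 of mitochondrial fusion (-0.54, adjusted p = 0.0475), and the list median was 0.09 against -0.10. That median was -0.089 with quantile normalization, with 3 called lower, -0.039 without KI sham heart 1 and -0.061 without KI TAC heart 6. The call of Mfn2 was lost on leaving out any 1 of 10 hearts, the exceptions being WT sham heart 1 and WT TAC heart 10, with median-ratio scaling and when only the KI hearts were fitted. Between the TAC groups 7 of 30 (23.3%) were called higher in KI hearts and none lower, where 2.92% and 8.13% of all genes were, with a median of 0.57 against -0.12. In the same comparison 3 of 8 cardiomyocyte markers were called higher and none lower. Mb, the oxygen store myoglobin, was 1679, 1740 and 1281 RPKM in WT TAC and 2491, 3038 and 2816 RPKM in KI TAC hearts (0.84, adjusted p = 0.0498). The part of cardiomyocyte content in the target genes was not tested.

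Cox7a1, a muscle form of a cytochrome c oxidase subunit, was 381, 421 and 313 RPKM in WT TAC hearts and 859, 1153 and 899 RPKM in KI TAC hearts (1.38, adjusted p = 0.0208). Ckm (1.14, adjusted p = 0.0141), the adenine nucleotide carrier Slc25a4 (1.04, adjusted p = 0.0244) and Cox5b (0.84, adjusted p = 0.0369) followed, and in each the groups did not overlap. The number of targets called higher depended on scaling and on single hearts. It was 20 with median-ratio scaling and 4 with quantile normalization, 3 when only the TAC hearts were fitted, 0 without WT TAC heart 7 or KI TAC heart 6, 2 without WT TAC heart 10, 4 without KI sham heart 3 or KI TAC heart 7, and 10 without the variance trend. None of the 30 passed the interaction test at an adjusted p of 0.05. At an unadjusted p under 0.05 by limma 11 of 30 passed it, beside 14.8% of all genes.

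Annotated exon length moved with these values. Among the 2810 genes with the shortest exons, up to 2627 bases in all, the median difference between the TAC groups was 0.06, with 6.01% called higher and 4.09% lower, and among the 2809 with the longest, from 6637 bases, it was -0.23, with 0.926% called higher and 10.5% lower. After TAC in WT hearts the order was opposite, with a median of -0.10 and 7.47% called lower in the shortest class and a median of 0.13 and 2.35% called lower in the longest. Of the 30 targets, 10 were in the shortest class and 2 in the longest. The members had 3836 to 10282 bases, with none in the shortest class, and Ppargc1b (3990 bases) was in the next class, whose median was -0.11. Depth also differed, at 25715276 to 29608610 reads in WT TAC and 30298106 to 31676821 in KI TAC hearts. The part of exon length and depth in these differences was not tested.

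Of 30 PPAR target genes, 1 (3.33%) was called higher and 2 (6.67%) lower in WT hearts after TAC, where 6.96% and 4.6% of all genes were, and 4 (13.3%) higher and 3 (10%) lower in KI hearts, where 8.57% and 14.7% of all genes were. The list medians were -0.42 and 0.00. The number higher in KI hearts was 2 without KI TAC heart 7 and 1 without KI sham heart 3, and the number lower was 1 without KI sham heart 3 or KI TAC heart 5. In WT hearts 6 were lower with median-ratio scaling or quantile normalization, 4 to 6 without KI sham heart 1, KI TAC heart 5 or KI TAC heart 6, and 0 or 1 without WT sham heart 1, 2 or 3 or WT TAC heart 7.

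Angptl4, an inhibitor of lipoprotein lipase, rose in both genotypes. It was 1.21, 0.824 and 2.09 RPKM in WT sham and 12.1, 33.0 and 3.32 RPKM in WT TAC hearts (2.42, adjusted p = 0.00935). In KI hearts it was 8.26, 4.52 and 4.35 RPKM after sham and 28.6, 33.1 and 26.7 RPKM after TAC (2.22, adjusted p = 0.00765).

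Pdk4, which restrains glucose oxidation, rose in KI hearts from 180.0, 104 and 133 RPKM to 549, 1033 and 339 RPKM (2.08, adjusted p = 0.0315). Plin2 of the lipid droplet coat (1.32, adjusted p = 0.019) and the uncoupling protein Ucp2 (1.01, adjusted p = 0.0186) rose there as well. In WT hearts the differences of Pdk4, Plin2 and Ucp2 were 1.00, 0.64 and 0.52 (adjusted p = 0.327, 0.267 and 0.234), with interactions of 1.08, 0.68 and 0.49 (adjusted p = 0.579, 0.536 and 0.557). Pdk4 differed by 1.54 between the sham groups (0.17 to 2.92, adjusted p = 1.00 after rounding). The lipoprotein receptor Vldlr fell in both genotypes (-0.81 and -0.98, adjusted p = 0.0193 and 0.0037). Cpt2, needed for fatty acid entry into mitochondria, fell in WT hearts (-0.78, adjusted p = 0.0245). In KI hearts its difference was -0.43 (adjusted p = 0.137), and the interaction was 0.34 (adjusted p = 0.575). Between the TAC groups 3 of 30 (10%) were called higher in KI hearts and 0 lower, where 2.92% and 8.13% of all genes were. Among them was the fatty acid carrier Fabp3 (1.00, adjusted p = 0.0383). At an unadjusted p under 0.05 by limma 13 of 30 passed in either direction, beside 30.3% of all genes. The number called higher was 8 with median-ratio scaling, 2 with quantile normalization, 7 without WT TAC heart 9 and 1 without KI TAC heart 7. It was 0 without WT TAC heart 7, WT TAC heart 10 or KI TAC heart 6 and when only the TAC hearts were fitted.

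Marker genes of other cells moved with surgery in part. Of 7 leukocyte markers tested, 5 were called higher in WT hearts after TAC, with summed levels of 65.7 to 112 RPKM after sham and 141 to 197 RPKM after TAC. In KI hearts 3 were called higher and 1 lower, with sums of 71.2 to 96.4 and 91.3 to 108 RPKM. The summed level of 6 fibroblast markers was 143 to 753 RPKM in WT TAC and 97.1 to 177 RPKM in KI TAC hearts, and of 6 endothelial markers 209 to 240 and 203 to 216 RPKM. Of the fibroblast markers 1, Lum, was called lower after TAC in KI hearts, and no endothelial marker was called in any comparison. Of 4 smooth muscle markers 1, Cnn1, was called higher after TAC in WT hearts and, between the TAC groups, lower in KI hearts, as were 2 leukocyte markers, Adgre1 and Csf1r. The cardiomyocyte markers Tnni3, Myl2 and Mb were called higher in that comparison. Their part in the changes of the regulators was not tested.

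The genes most like Ppargc1a over the 12 hearts, by Pearson's r of log2(RPKM + 1), were Lifr (0.956), Btbd3 (0.952) and Ppara (0.950). For Perm1 they were Syt7 (0.980), Dnaaf3 (0.971) and Col6a6 (0.970). The hearts share their group differences and the scaling by depth, so these values describe the pattern alone.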

How the data were processed

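Poly(A) RNA of 12 mouse hearts had been sequenced with a strand-specific protocol, in a single-read run of 75 cycles. According to the submitters' processing notes and the study's methods, reads were trimmed with Trimmomatic 0.39, mapped to GRCm38 with HISAT2 2.2.1 and counted with HTSeq 0.6.1, and edgeR 3.18.1, limma 3.32.10 and R 4.1.1 were used for the study's tests. The authors deposited 1 value per gene and heart, which is RPKM by its values, made from those read counts in a step that the sources used here do not name. Values times exon length (GENCODE M21, in kilobases) summed to 997702 to 1002226 per heart. Low values were whole multiples of 1 read within 0.1 for 98.1% to 98.4% of those checked, which gave depth and rebuilt reads.

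From these RPKM values log2(RPKM + 1) was computed, and genes reaching 1 RPKM in 3 or more hearts were tested. A 4-group model with a variance trend (limma 3.58.1 under R 4.3.3) gave two-sided p-values with Benjamini-Hochberg adjustment over 11240 genes. The pseudocount understates changes of low genes such as Nrf1. The model was also run on simulated reads with known changes, and the outcome of that run is not given here. Alternatives were a pseudocount of 0.1, other filters, 2 other scalings, limma-voom on rebuilt reads, a fit of the groups compared, no trend, an adjusted p of 0.10 and leaving out each heart. limma-voom with median-ratio scaling, the within-heart ratios and the classes of exon length were added after seeing the data.

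The members and gene lists were chosen with earlier results of these data known, so their counts and medians describe and do not test the lists. The text names all 10 members, at most 4 genes per list and comparison (the largest differences among called genes without overlap between groups), and the 3 genes most like Ppargc1a and Perm1. Pparg, Vldlr and Mgme1 in KI hearts, Esrrb, the marker genes and the motifs shown, were named after their values were seen. Python 3.11.15, numpy 2.4.6, pandas 2.3.3 and matplotlib 3.10.9 were used. No sequence is shown for Ppargc1b.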

Additional observations from a re-analysis of the deposited data

How the results depend on the processing

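The number of regulators called, at 2 in WT hearts, 7 in KI hearts, 1 between the TAC groups and 0 for the interaction, ranged from 1 to 3, 5 to 8, 0 to 2 and 0 to 1 when single hearts were left out, and stayed at 0 between the sham groups. Between the TAC groups it was 2 with a pseudocount of 0.1 and with limma-voom on rebuilt reads, and 3 at an adjusted p of 0.10. Without single hearts, near-zero differences changed sign: in WT hearts Ppargc1b ranged from -0.24 to 0.40, Ppard from -0.095 to 0.064, Tfam from -0.20 to 0.017 and Esrrg from -0.52 to 0.00036, and in KI hearts Tfam from -0.22 to 0.017. The median of ERR and PGC-1 targets in KI hearts was -0.089 with quantile normalization and ranged from -0.061 to 0.23 without single hearts, and that of PPAR targets was -0.029 with quantile normalization and ranged from -0.15 to 0.25. The cause of these changes was not tested. In the sham hearts, deviations of same-numbered WT and KI hearts from their group means correlated at -0.225, -0.302 and 0.44. With 3 hearts a group these values cannot decide whether the numbers pair the hearts. A fit with the replicate block called 0 members, as without it. With 3 hearts a group, changes smaller than the intervals given could not be seen.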
